A study of Mus musculus with 36 samples.

Results

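Circular RNAs (circRNAs) that are either missing from a library's count or well covered in it, with nothing in between, are described here in mouse brain. They were chosen by their read counts: a circRNA of the deposited table belonged to the set if it had 0 reads in at least 1 of the 12 circRNA libraries and 20 or more reads in every other library. Of 15690 listed circRNAs, 70 (0.446%) met this rule, and they are called all-or-none circRNAs below. Since the counts of all 12 libraries chose the set, the presence patterns and levels are a description of these libraries, and the p-values given for single members come from fits over the whole table and support nothing further.

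The study compared brain of APP/PS1 mice, which express the APP695swe and PS1-dE9 transgenes, with brain of wild-type (WT) mice, both labelled as strain C57BL/6, and set out to profile all transcripts at 6 and at 9 months of age. The 4 groups were WT at 6 months, APP/PS1 at 6 months, WT at 9 months and APP/PS1 at 9 months, with 3 circRNA libraries in each. Libraries are named by genotype and the number in the label (WT 1, APP/PS1 2). APP/PS1 mice make more amyloid-beta peptide and form amyloid plaques as they age, and serve as a model of the amyloid part of Alzheimer's disease. The labels name neither the promoter of the transgenes nor the animal behind each library. Libraries of a group may thus be technical repeats, and p-values reflect the spread between libraries only. In bulk brain RNA, fewer cells of a type and less RNA per cell cannot be told apart.

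A circRNA forms when the splicing machinery joins the end of an exon back to the start of the same or an earlier exon, in place of the next exon downstream. The closed ring has no free ends for exonucleases to attack and is therefore long-lived, and neurons are among the cells richest in circRNAs. In short-read data a circRNA is counted by the reads that cross its back-splice junction, since the remaining sequence is shared with the linear mRNA of the same gene. RNA-binding proteins such as Quaking and Muscleblind can bring the flanking introns together and favour the circle, while ADAR and DHX9 disrupt paired intronic repeats and can lower it. The table names circRNAs by ID alone. Host genes, positions and junction sequences were not used here, and members are given by their IDs.

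Total circRNA reads were lowest in WT 2 of 9 months (247998) and highest in WT 1 of 9 months (654147). No count of 1 occurred in the table, the smallest count above 0 was 2, and every listed circRNA was above 0 in at least 3 libraries. A listed 0 may therefore lie under a minimum set before deposit, and no fold or limit was computed from it. Libraries of the same group differed by more than sampling noise, with a chi-square per degree of freedom of 2.27 to 7.22 over the 12 pairs within groups. The tissue protocol names retinas, while the tissue label reads brain. In the 12 long RNA libraries of the same groups, 5 brain neuron markers summed to 1447 to 1637 FPKM (fragments per kilobase of transcript, scaled to library size), while 7 photoreceptor markers of the retina summed to 0.417 to 0.826 FPKM, 3 of the 7 being above 0 in every library and Crx having a median of 0. The labels do not tie the circRNA libraries to the RNA of the long RNA libraries.

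The all-or-none circRNAs were mostly missing from few libraries. Of the 70, 37 were at 0 in 1 library, 6 in 2, 3 in 3, 11 in 4, 5 in 5, 4 in 6, 2 in 7 and 2 in 8. In all, 181 of the 840 combinations of member and library held a 0. The rest of the table was not built this way. A 0 in at least 1 library was seen for 7969 circRNAs, and 431 of these reached 20 reads somewhere but also had counts between 0 and 20. Among the 47 circRNAs that were at 0 in some library and at 100 reads or more in another, however, 36 were all-or-none.

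**Figure D1:**
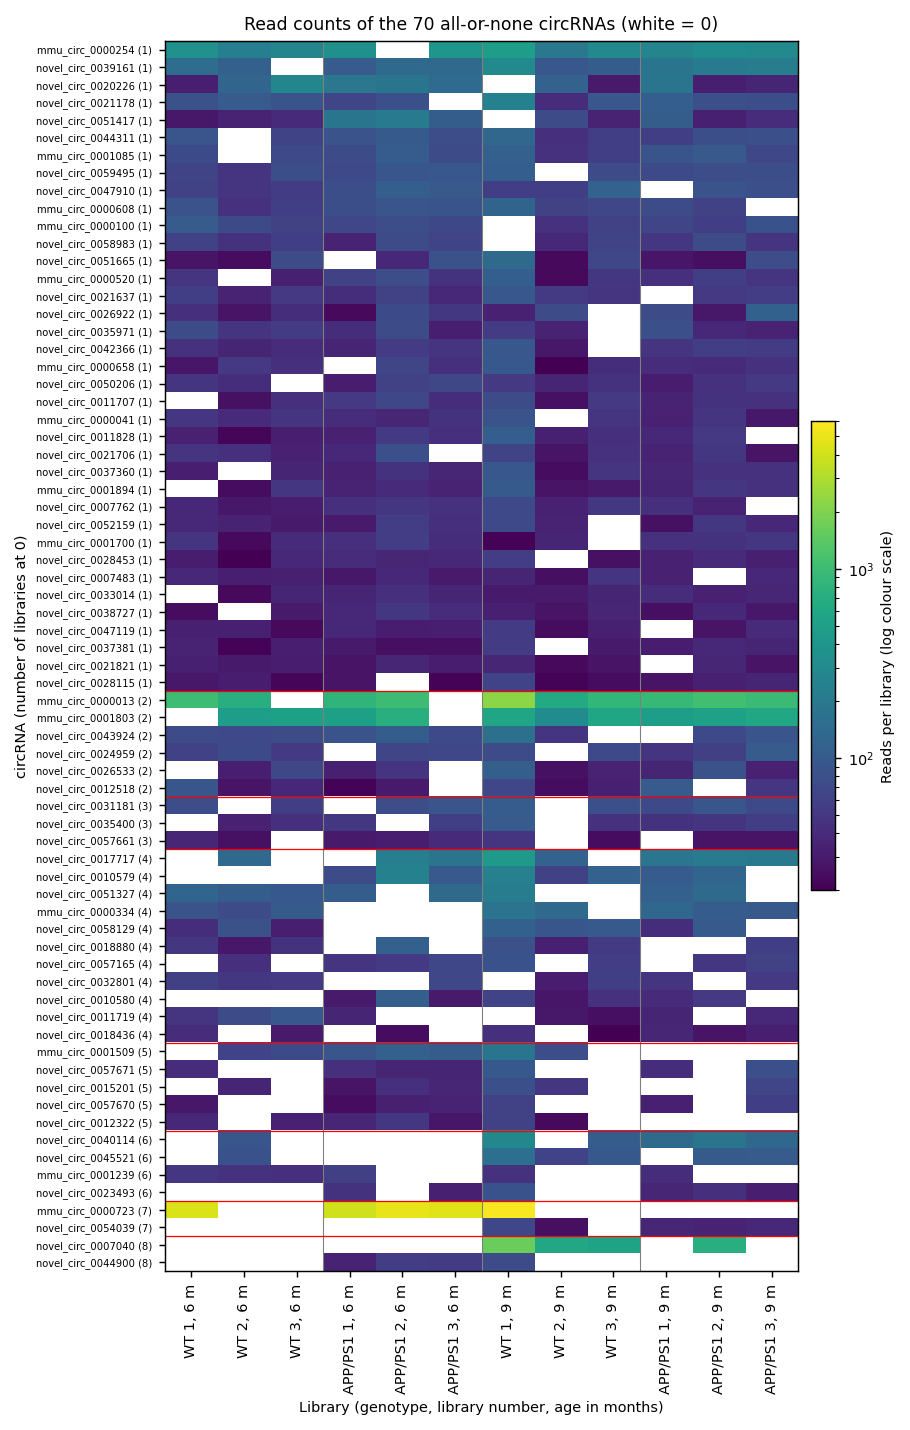
Read counts of the 70 all-or-none circRNAs (rows) in the 12 circRNA libraries (columns, grouped by genotype and age), on a log colour scale with 0 drawn white. Rows are sorted by the number of libraries at 0, given in brackets, and red lines separate these numbers. No row is white in exactly 1 or more whole groups.

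The IDs divide into those beginning mmu_circ, the form of a public circRNA catalogue, and those beginning novel_circ. The set held 15 catalogued (21.4%) and 55 uncatalogued circRNAs. Of all listed circRNAs, most of which had low counts, 7.63% were catalogued. Of the 1812 circRNAs with 20 or more reads in all 12 libraries, 690 (38.1%) were catalogued. Among circRNAs that had at least 20 reads wherever they were listed, 15 of 705 catalogued ones (2.13%) and 55 of 1177 uncatalogued ones (4.67%) were at 0 somewhere. ID class is a property of the circRNA, not of a sample, and this difference has no replicate error to be set against.

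The lower limit of 20 reads cuts a continuum. The members nearest inside were novel_circ_0018436, novel_circ_0028453 and mmu_circ_0000658, each with a lowest listed count of 20. The rows nearest outside were novel_circ_0042743 with a lowest count of 19, and mmu_circ_0000393 and novel_circ_0026244 with 18. At the other end, 6 members had 100 or more reads in every library that listed them.

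Where listed, members lay within the range of the 1812 circRNAs with 20 or more reads in all 12 libraries, in level and spread. Both sets were asked for 20 or more reads where listed, which sets the lower end of the levels. Levels are given in CPM, which corrects each count for the circRNA reads of its library and not for length. Mean CPM over the listing libraries ran from 76.5 to 10688 with a median of 133, against a median of 196 for the 1812 circRNAs that had 20 or more reads everywhere. The coefficient of variation (CV, the SD divided by the mean) of CPM over the listing libraries had a median of 0.204 in the members and 0.175 in the 1812. The steadiest member, novel_circ_0045521, had 257 ± 16.7 CPM (SD, n = 6) and 6 libraries at 0. The least steady were novel_circ_0051417, with a CV of 0.717, and novel_circ_0020226, with 0.685.

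**Figure D2:**
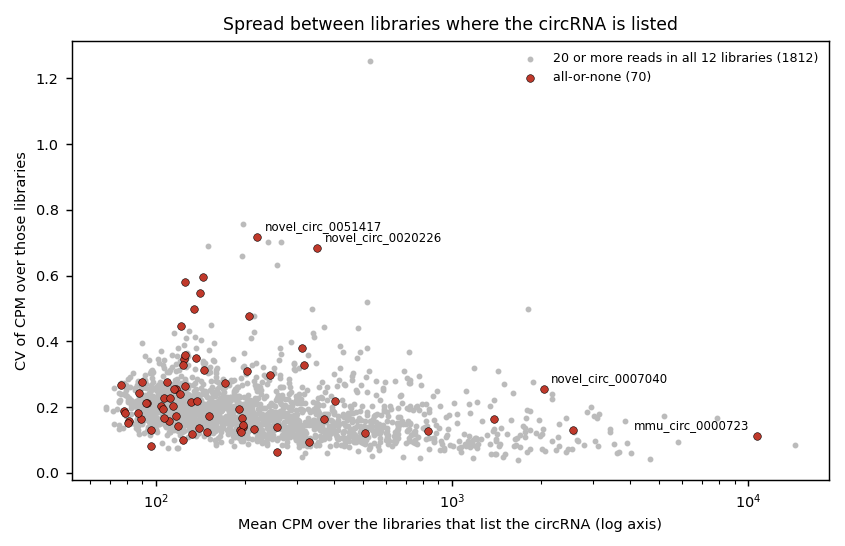
CV of CPM against mean CPM (log axis), both over the libraries that list the circRNA. Red points are the 70 all-or-none circRNAs and grey points the 1812 circRNAs with 20 or more reads in all 12 libraries; most red points lie within the grey cloud, and novel_circ_0051417 and novel_circ_0020226 lie near its upper edge.

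The zeros can be set beside the level in the other libraries. At the mean CPM of its listing libraries, each member would correspond to between 18.98 and 4514 reads in the libraries where it was at 0, with a median of 52.2. For 178 of the 181 zeros this number was 20 or more. The rule itself nearly fixed this, since it asked for 20 or more reads in every listing library. The number also assumes that the level elsewhere holds in the library at 0, and is given as a description of size.

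The most abundant member was mmu_circ_0000723. It had 4447, 0 and 0 reads in WT 1 to 3 at 6 months and 3939, 4871 and 4501 in APP/PS1 1 to 3 at 6 months. At 9 months it had 5657, 0 and 0 reads in WT and 0, 0 and 0 in APP/PS1. It was thus present in all APP/PS1 libraries of the younger age and in none of the older age, but WT libraries of both ages were split, with WT 1 high and WT 2 and WT 3 at 0. Its level where listed was 10688 ± 1205 CPM (SD, n = 5), and it ranked between 2 and 3 of all circRNAs in those libraries. It made up 0.865% to 1.17% of all circRNA reads there. In the libraries at 0 the same CPM would correspond to 2651 to 4514 reads.

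The next member in level, mmu_circ_0000013, was at 0 in 2 libraries. It had 1029, 733 and 0 reads in WT and 835, 999 and 0 in APP/PS1 at 6 months, then 2229, 657 and 879 in WT and 913, 1073 and 978 in APP/PS1 at 9 months. The library numbered 3 of each genotype was at 0 at the younger age, and every library was high at the older age. Its level where listed was 2560 ± 332 CPM (SD, n = 10), and the 2229 reads came from the deepest library. At that mean CPM the empty libraries would correspond to 871 and 1008 reads.

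Group by group, the replicates of every member disagreed somewhere. None of the 70 was at 0 in exactly the libraries of 1 or more whole groups, and all 70 had at least 1 group with both empty and covered libraries. In 13 members at least 1 group had all 3 libraries at 0, and in the other 57 no group did. WT at 6 months was wholly at 0 for 6 members, APP/PS1 at 6 months for 6, APP/PS1 at 9 months for 4 and WT at 9 months for 0. In the last group 36 members had mixed replicates, against 27 in WT at 6 months, 21 in APP/PS1 at 6 months and 25 in APP/PS1 at 9 months.

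By age, 19 members were at 0 only in libraries of 6 months, 22 only in libraries of 9 months and 29 at both ages. By genotype, 23 were at 0 only in WT libraries, 17 only in APP/PS1 libraries and 30 in both. A member with a single empty library falls on 1 side of each division by construction. Among the 33 members with 2 or more empty libraries, 29 were at 0 at both ages, 3 at 6 months only (mmu_circ_0000013, mmu_circ_0001803 and novel_circ_0026533) and 1 at 9 months only (novel_circ_0043924). Of the same 33, 30 were at 0 in both genotypes, 3 in APP/PS1 only (novel_circ_0058129, novel_circ_0018880 and novel_circ_0012518) and 0 in WT only.

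**Figure D3:**
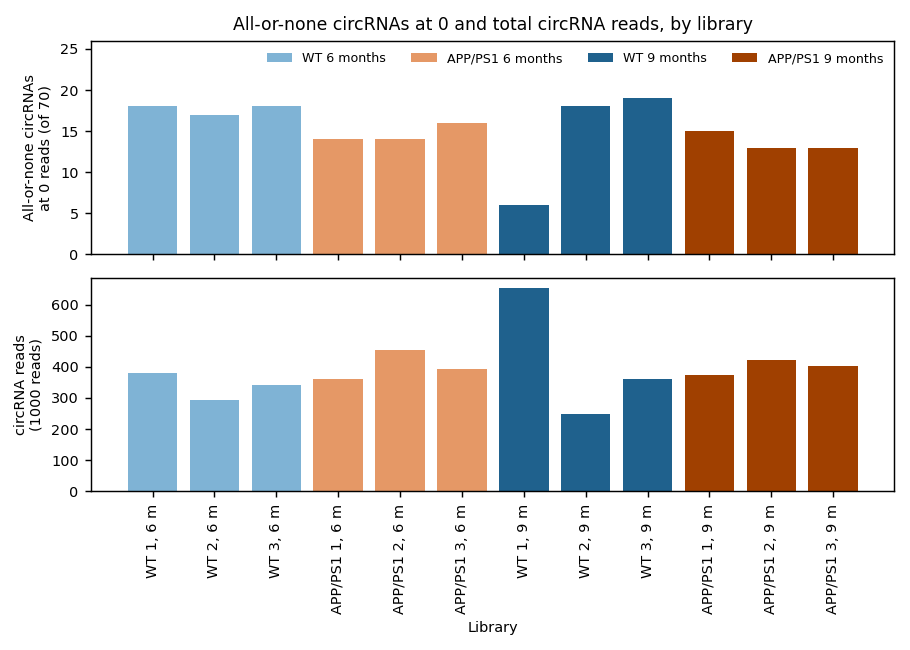
Number of the 70 all-or-none circRNAs at 0 reads in each library (upper bars) and total circRNA reads of the same library in units of 1000 reads (lower bars), coloured by group. The deepest library, WT 1 of 9 months, has 6 members at 0, and the other 11 libraries have 13 to 19.

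Per library, 17 to 18 members were at 0 in WT and 14 to 16 in APP/PS1 at 6 months, and 13 to 15 were at 0 in APP/PS1 at 9 months. WT at 9 months was uneven, with 6 in WT 1, 18 in WT 2 and 19 in WT 3. WT 1 was the deepest library and WT 2 the shallowest, while WT 3 had 361689 reads, within the range of the other groups. Over the whole table, 7.92% of circRNAs were at 0 in WT 1 of 9 months, the lowest share, and 22.5% in WT 2 of 9 months, the highest. The part of depth in the members' zeros was not tested. Members held 1.02% to 2.56% of the circRNA reads of a library, or 0.916% to 1.70% with mmu_circ_0000723 left out.

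Of the members at 0 in a single library, each library had between 1 and 5. Of these, 4 were missing only from the deepest library, WT 1 of 9 months: novel_circ_0020226, novel_circ_0051417, mmu_circ_0000100 and novel_circ_0058983. The largest single gap belonged to mmu_circ_0000254, which had 0 reads in APP/PS1 2 of 6 months. Its other libraries held 359, 234 and 267 reads in WT and 354 and 402 in APP/PS1 at 6 months, and 478, 195 and 304 in WT and 269, 319 and 300 in APP/PS1 at 9 months. Its level over these libraries was 827 ± 106 CPM (SD, n = 11), which would correspond to 374 reads in the empty one. The same measure gave 230 reads for novel_circ_0020226 and 144 for novel_circ_0051417 in WT 1 of 9 months. It gave 137 reads for novel_circ_0039161, with 0 reads in WT 3 of 6 months and 95 to 309 elsewhere.

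The single gaps of the remaining libraries were of smaller size, and are given for the member of highest mean count missing only there. WT 1 of 6 months lacked novel_circ_0011707, which had 26 to 76 reads elsewhere, and WT 2 of 6 months lacked novel_circ_0044311, with 43 to 131. APP/PS1 1 of 6 months lacked novel_circ_0051665, with 23 to 143, and APP/PS1 3 of 6 months lacked novel_circ_0021178, with 41 to 247. At 9 months WT 2 lacked novel_circ_0059495, with 48 to 109 elsewhere, and WT 3 lacked novel_circ_0026922, with 23 to 117. APP/PS1 1 to 3 of 9 months lacked, in that order, novel_circ_0047910 (47 to 119 elsewhere), novel_circ_0007483 (25 to 48) and mmu_circ_0000608 (45 to 125). Among the other members at 0 in 1 library, mmu_circ_0001085 (45 to 115 reads elsewhere) was missing from WT 2 of 6 months and novel_circ_0042366 (29 to 95) from WT 3 of 9 months. The latter had 124 ± 12.3 CPM (SD, n = 11) where listed, a CV of 0.099. The lowest mean count where listed belonged to novel_circ_0028115, at 21 to 63 reads and missing from APP/PS1 2 of 6 months. Each library, shallow or deep, was thus the only one to miss some circRNA that the other 11 covered.

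Members missing from 2 to 6 libraries mostly cut across the groups. In mmu_circ_0001803 the empty libraries were WT 1 and APP/PS1 3, both of 6 months. The remaining 6-month counts were 489 and 507 in WT and 508 and 726 in APP/PS1, and the 9-month counts 582, 316 and 570 in WT and 475, 525 and 602 in APP/PS1. In novel_circ_0017717 the empty libraries were WT 1, WT 3 and APP/PS1 1 of 6 months and WT 3 of 9 months, and the other 8 held 119 to 429 reads. In novel_circ_0051327 they were APP/PS1 2 of 6 months, WT 2 and WT 3 of 9 months and APP/PS1 3 of 9 months, with 96 to 224 reads elsewhere. These empty libraries belonged to 2 or 3 of the 4 groups and left each of those groups with at least 1 covered library.

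The other members of this range with high counts were also missing from parts of several groups. With 2 empty libraries, novel_circ_0043924 was missing from WT 3 and APP/PS1 1 of 9 months and had 48 to 163 reads elsewhere. With 3, novel_circ_0031181 had 58 to 105 reads, novel_circ_0035400 had 34 to 104 and novel_circ_0057661 had 24 to 47 in the libraries that listed them. All 3 of these were missing from WT 2 of 9 months, the shallowest library, and from 2 libraries of other groups. With 5, novel_circ_0015201 was missing from WT 1 and WT 3 of 6 months and from WT 3, APP/PS1 1 and APP/PS1 2 of 9 months, and had 27 to 81 reads elsewhere. With 6, mmu_circ_0001239 was present in all WT libraries of 6 months (49, 45 and 43 reads) and in 1 library of each other group (59, 45 and 42).

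The members at 0 in APP/PS1 libraries only were not at 0 in a whole genotype. In novel_circ_0018880 the counts at 6 months were 49, 29 and 46 in WT and 0, 114 and 0 in APP/PS1, and at 9 months 82, 33 and 53 in WT and 0, 0 and 58 in APP/PS1. It was covered in all 6 WT libraries and in 2 of the 6 APP/PS1 libraries, 1 of each age. In novel_circ_0012518 the counts were 93, 27 and 38 in WT and 21, 30 and 0 in APP/PS1 at 6 months, and 67, 24 and 33 in WT and 102, 0 and 49 in APP/PS1 at 9 months. Where listed, it had a CV of 0.581, with WT 1 of 6 months and APP/PS1 1 of 9 months highest in reads.

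Of the members at 0 in 4 libraries, novel_circ_0032801 and novel_circ_0011719 were missing from the deepest library, WT 1 of 9 months. For novel_circ_0032801 the other empty libraries were APP/PS1 1 and 2 of 6 months and APP/PS1 2 of 9 months, and the remaining 8 held 31 to 67 reads. For novel_circ_0011719 they were APP/PS1 2 and 3 of 6 months and APP/PS1 2 of 9 months, and the remaining 8 held 25 to 94 reads, with the WT libraries of 6 months at 47, 73 and 94 and every other listing library at 39 or below. In novel_circ_0057165 the empty libraries were WT 1 and WT 3 of 6 months, WT 2 of 9 months and APP/PS1 1 of 9 months, and the others held 44 to 84 reads. In novel_circ_0026533, which shares the gaps of mmu_circ_0001803, the covered libraries held 26 to 113 reads.

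In all, 7 members came within 1 library of a pattern that follows whole groups. For novel_circ_0044900 the counts were 35, 56 and 54 in APP/PS1 of 6 months and 76 in WT 1 of 9 months, and 0 in the other 8 libraries. WT 1 of 9 months was thus the only library outside the younger APP/PS1 group to list it. For novel_circ_0007040 the counts were 1644, 614 and 551 in WT of 9 months and 707 in APP/PS1 2 of 9 months, and 0 in the rest. All 6 libraries of 6 months were empty, and at 9 months the APP/PS1 library that listed it, at 1674 CPM, lay among the WT libraries, at 2171 ± 561 CPM (SD, n = 3). For novel_circ_0054039 the 6 libraries of 6 months were also empty, and those of 9 months held 67, 25 and 0 reads in WT and 37, 35 and 39 in APP/PS1.

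Among these members, mmu_circ_0000334, novel_circ_0058129, novel_circ_0010579 and novel_circ_0010580 were each missing from 1 group of 6 months and from 1 library of 9 months. In mmu_circ_0000334 the counts at 6 months were 87, 75 and 100 in WT and 0, 0 and 0 in APP/PS1, and at 9 months 175, 145 and 0 in WT and 137, 106 and 99 in APP/PS1. In novel_circ_0058129 they were 42, 82 and 32 in WT and 0, 0 and 0 in APP/PS1 at 6 months, and 118, 92 and 98 in WT and 42, 101 and 0 in APP/PS1 at 9 months. The gap at 6 months was in the APP/PS1 group for this pair of members. In novel_circ_0010579 it was in WT, with 0, 0 and 0 reads against 75, 245 and 98 in APP/PS1, while the 9-month counts were 240, 62 and 120 in WT and 106, 128 and 0 in APP/PS1.

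**Figure D4:**
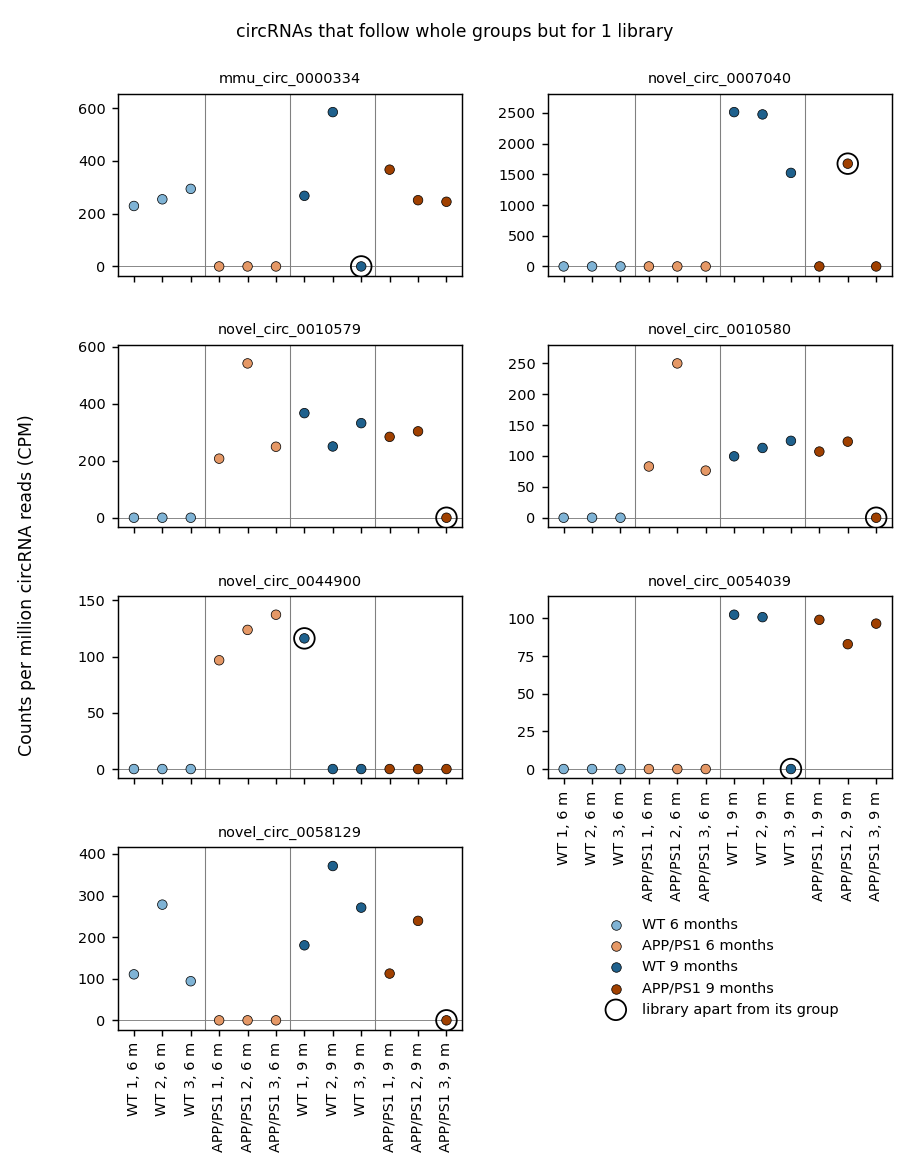
CPM in each of the 12 libraries for the 7 members whose zeros follow whole groups but for 1 library, which is ringed. Vertical lines separate the groups. The ringed library is in a 9-month group in all 7 panels.

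Other members with an empty group were mixed elsewhere. In novel_circ_0040114 all APP/PS1 libraries of 6 months were empty, with 0, 93 and 0 reads in WT of that age, and the 9-month counts were 286, 0 and 108 in WT and 143, 185 and 137 in APP/PS1. In novel_circ_0045521 the younger counts were 0, 84 and 0 in WT and 0, 0 and 0 in APP/PS1, and the older ones 161, 63 and 96 in WT and 0, 100 and 103 in APP/PS1. Both were thus listed by WT 2 alone among the 6-month libraries. In novel_circ_0023493 WT of 6 months was empty, and the other groups had 46, 0 and 33, then 85, 0 and 0, then 37, 44 and 32 reads.

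The older APP/PS1 group was wholly empty for 4 members, among them mmu_circ_0001509 and novel_circ_0012322. In mmu_circ_0001509 the counts at 6 months were 0, 63 and 72 in WT and 90, 115 and 107 in APP/PS1, and at 9 months 185, 77 and 0 in WT and 0, 0 and 0 in APP/PS1. In novel_circ_0012322 they were 39, 0 and 34 in WT and 37, 50 and 28 in APP/PS1, then 61, 23 and 0 in WT and 0, 0 and 0 in APP/PS1. Both were missing from WT 3 of 9 months as well, and each from 1 WT library of 6 months, which was not the same one.

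Few members shared a pattern. The 70 had 42 distinct sets of empty libraries, and the members with 2 or more empty libraries had 30. Of those 30 sets, 3 belonged to 2 members each. They were novel_circ_0010579 with novel_circ_0010580, novel_circ_0057670 with novel_circ_0057671, and mmu_circ_0001803 with novel_circ_0026533. No pair of members out of 2415 was complementary, that is, with exactly 1 of the pair above 0 in every library. Since every listed circRNA was above 0 in at least 3 libraries, a member missing from fewer than 3 libraries could have no such partner in the table.

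Both of the first 2 of these pairs had consecutive ID numbers. What the order of the numbers stands for is not stated. The counts of novel_circ_0010580 were 0, 0 and 0 in WT and 30, 113 and 30 in APP/PS1 at 6 months, and 65, 28 and 45 in WT and 40, 52 and 0 in APP/PS1 at 9 months, so that its highest count at 6 months fell in the same library as that of novel_circ_0010579. The circRNA numbered next below, novel_circ_0010578, which is not a member, had 0, 2 and 0 reads in WT and 35, 98 and 25 in APP/PS1 at 6 months, and 11, 35 and 45 in WT and 30, 40 and 0 in APP/PS1 at 9 months. The 3 consecutive IDs were thus at 0 to 2 reads in the younger WT libraries and at 0 in APP/PS1 3 of 9 months, and were covered in the rest.

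The second pair was missing from WT 2 and WT 3 at both ages and from APP/PS1 2 of 9 months. The counts of novel_circ_0057670 in the libraries that listed it were 29, then 24, 33 and 35, then 62, then 33 and 57, and those of novel_circ_0057671 were 41, then 44, 36 and 36, then 97, then 42 and 81. Of these, novel_circ_0057671 was the higher in each library. A member with a neighbour outside the set was novel_circ_0024959, with 48 to 103 reads and 0 in APP/PS1 1 of 6 months and WT 2 of 9 months; the same libraries were at 0 for novel_circ_0024958, which had 11 to 41 reads elsewhere. In novel_circ_0018436, 3 of its 4 empty libraries were also empty for novel_circ_0018435.

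**Figure D5:**
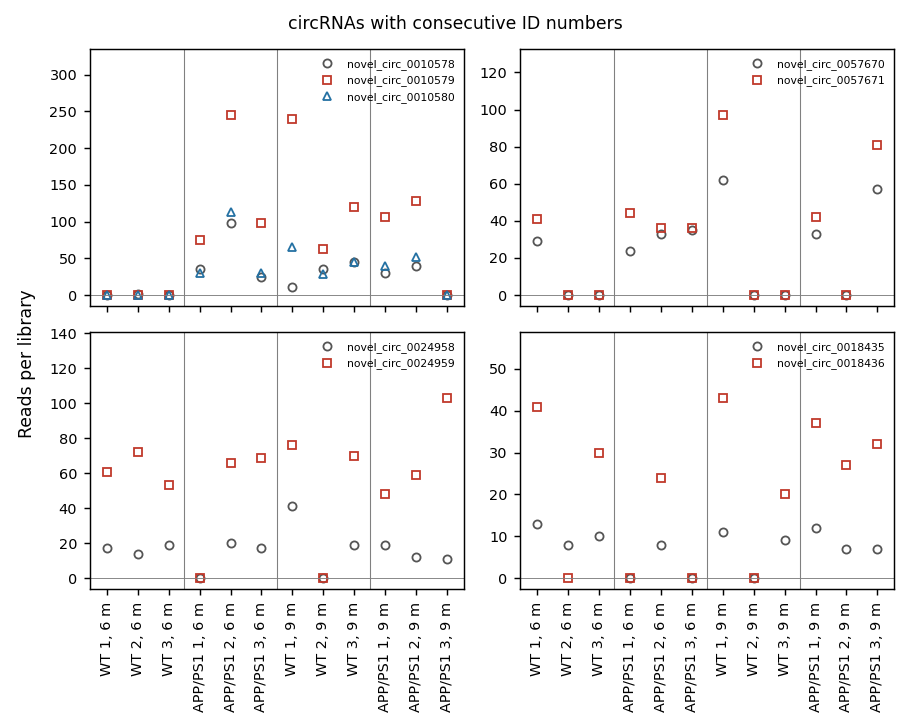
Reads per library for 4 runs of circRNAs with consecutive ID numbers, one marker shape for each circRNA and vertical lines between groups. In the upper panels and the lower left panel the circRNAs of a run are at 0 in the same libraries, apart from 2 reads of novel_circ_0010578 in WT 2 of 6 months.

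Most numbered neighbours did not share a member's gaps. A circRNA with the next higher or lower number was listed for 43 members, giving 57 pairs of member and neighbour. In 34 of these the neighbour was above 0 in all 12 libraries, and in 18 it had 20 or more reads in all of them. The neighbour had exactly the member's zeros in 5 of the 57 (8.77%), with the pairs of members counted from both sides. Over all circRNAs with a 0, this was so in 32 of 4459 such pairs (0.718%). Members have fewer zeros and higher counts than most of those circRNAs, the IDs are not independent of each other, and no test was made. No neighbour was complementary to a member, and none could be, since no pair had zeros that add up to 12.

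At 6 months, the fit of all 12 libraries across the table (edgeR's quasi-likelihood test, Benjamini-Hochberg adjusted p under 0.05) called 7 of 14872 circRNAs different between APP/PS1 and WT, which is 0.0471%. All 70 members passed the filter on low counts and 2 of them were called. Higher in APP/PS1 was novel_circ_0010579 (adjusted p = 0.0409) and lower was mmu_circ_0000334 (adjusted p = 0.0440). One group of each was wholly at 0, so no fold is given. Unadjusted p-values lay under 0.05 for 11 members and for 5.30% of all circRNAs. The call of mmu_circ_0000334 was lost without any 1 of the 6 libraries of 6 months (adjusted p = 0.111 to 0.286 in edgeR) or of the 3 APP/PS1 libraries of 9 months (0.0602 to 0.0769). That of novel_circ_0010579 was lost without any 1 of the 6-month libraries (edgeR adjusted p = 0.0671 to 0.184), WT 2 (0.0566) or WT 3 (0.0623) of 9 months or APP/PS1 1 of 9 months (0.0658). Over the fits without 1 library, the lowest edgeR adjusted p was 1.16e-06 for mmu_circ_0000334 and 1.21e-05 for novel_circ_0010579. DESeq2 called 19 circRNAs, 5 of them members, with novel_circ_0010580, novel_circ_0040114 and novel_circ_0058129 added. It gave no adjusted p for 9238 of the 14872.

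At 9 months edgeR called 1 circRNA different between the genotypes, which is 0.00672% of the table, and 0 of the 70 members. Unadjusted p-values were under 0.05 for 4 members and 4.44% of the table, and DESeq2 called 4 circRNAs and 0 members. Between the ages, over both genotypes, edgeR also called 1 circRNA (0.00672%), and this was the member novel_circ_0054039, higher at 9 months (adjusted p = 0.0333), whose 6 younger libraries were all at 0. Its call was lost in edgeR without WT 1 (adjusted p = 0.0710) or WT 3 (0.0664) of 6 months, and likewise when WT 2 (0.118), APP/PS1 1 (0.0766) or APP/PS1 2 (0.0617) of the older age was left out. With WT 3 of 9 months, its empty library at that age, left out, adjusted p was 2.99e-06 in edgeR. Unadjusted p-values were under 0.05 for 12 members and 5.78% of the table. DESeq2 called 26 circRNAs, 4 of them members, and gave no adjusted p for 9814 circRNAs.

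Whether the genotype difference itself differed between the ages was tested as an interaction. Here edgeR called 6 circRNAs (0.0403%) and 0 members, with unadjusted p under 0.05 for 11 members and 5.98% of the table. For the same term DESeq2 called 17 circRNAs and gave no adjusted p for 10967. Of the 17, 4 were members: mmu_circ_0000334, novel_circ_0010579, novel_circ_0010580 and novel_circ_0040114.

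Counted without a model, 17 of 70 members had CPM that did not overlap between APP/PS1 and WT at 6 months, 8 higher and 9 lower in APP/PS1, against 13.1% of all 14872 circRNAs. At 9 months this was so for 3 of 70, with novel_circ_0037381 and novel_circ_0039161 higher and novel_circ_0011828 lower in APP/PS1, against 10.5% of all. Between the ages, with 6 libraries against 6, it was so for 0 of 70 members and 0.343% of all. A 0 in 1 group counts as a value here, so a member empty in a whole group, such as mmu_circ_0000334 or novel_circ_0044900, has no overlap wherever the other group is covered.

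With the zeros set aside as missing, the level among the libraries that did list a member could be compared (limma on log2(CPM + 0.5), at least 1 listing library in each group compared and at least 6 in all). At 6 months 59 members could be tested and 1 was called, while 9 of 14432 circRNAs were called in all (0.0624%). It was novel_circ_0051417, with 29, 35 and 40 reads in WT and 183, 214 and 107 in APP/PS1. Every APP/PS1 library was above every WT library. In CPM these were 104 ± 24.1 and 417 ± 127 (SD, n = 3), and the log2 difference was 2.0 (SE 0.37, limma adjusted p = 0.0292). At 9 months the same circRNA had 0, 73 and 35 reads in WT and 107, 33 and 41 in APP/PS1, where the groups overlapped. Its interaction term was -2.31 on the log2 scale (SE 0.56) with a limma adjusted p of 0.195. The call at 6 months was lost without any 1 of the WT libraries of that age (limma adjusted p = 0.185, 0.0959 and 0.0934 without WT 1, 2 and 3) or without APP/PS1 1 (0.217) or APP/PS1 2 (0.197). The edgeR fit of all counts, another method in which its 0 in WT 1 of 9 months also entered, gave an adjusted p of 0.793 for the same comparison, and edgeR did not call it without that library either.

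The next least steady member, novel_circ_0020226, did not follow the groups. It had 32, 129 and 276 reads in WT and 191, 184 and 148 in APP/PS1 at 6 months, and 0, 120 and 30 in WT and 182, 32 and 36 in APP/PS1 at 9 months. High and low libraries occurred in 3 of the 4 groups, and only APP/PS1 at 6 months was uniformly high. Its limma adjusted p was 0.966 at 6 months and 0.972 at 9 months. Like novel_circ_0051417, it was at 0 only in WT 1 of 9 months.

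For the remaining contrasts among listing libraries, limma called no member. At 9 months 64 members were tested, with 3 of 14568 circRNAs called in all (0.0206%). Between the ages 57 were tested, with 13 of 14215 called (0.0915%), and for the interaction 57 were tested, with 4 called in all (0.0281%). Unadjusted limma p-values lay under 0.05 for 2, 10 and 6 members in these 3 contrasts, and for 5.31%, 6.12% and 6.02% of all circRNAs tested. At 6 months they did for 5 members and 5.37% of all. The medians of the members' log2 differences were -0.06, -0.04 and -0.05, beside medians of all circRNAs tested between -0.01 and 0.01. At 6 months the members' median was 0.03 and that of all -0.01.

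Genes of RNA processing were read from the mRNA libraries of the same groups. The list held 21 genes of circRNA formation or splicing, 10 of circRNA decay or export and 5 other RNA processing genes. Of these 36, values were found for 35, and limma on log2(FPKM + 0.25) called 0 of them in each of the 4 contrasts. The table as a whole had 6 of 13593 genes called for genotype at 6 months (0.0441%), 13 at 9 months (0.0956%), 2 for age (0.0147%) and 1 for the interaction (0.00736%). Unadjusted limma p-values were under 0.05 for 5, 6, 3 and 7 of the 35 in these contrasts, and for 11.7%, 9.73%, 12.2% and 11.3% of all genes. Qk, which encodes the Quaking protein that promotes circle formation, lay between 79.4 and 94.3 FPKM in the 12 libraries. Mbnl1, the gene of a Muscleblind protein, lay between 20.3 and 40.9 FPKM.

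The smallest p-values of the list at 6 months belonged to G3bp2, Adar and Dhx9. G3bp2, which encodes a stress granule protein, had 72.0 ± 1.81 FPKM in WT and 80.3 ± 3.53 in APP/PS1 (SD, n = 3; limma adjusted p = 0.177). Adar, the gene of an RNA-editing enzyme that opens double-stranded RNA, had 33.5 ± 1.15 and 39.1 ± 0.705 FPKM (adjusted p = 0.242 in limma). Dhx9, which encodes an RNA helicase that unwinds paired repeats, had 35.6 ± 1.45 and 38.4 ± 1.47 FPKM (adjusted p = 0.365 in limma). At 9 months Adar had 35.6 ± 3.85 FPKM in WT and 32.8 ± 0.420 in APP/PS1, and its interaction term had a limma adjusted p of 0.262, the smallest of the list, followed by Dhx9 (0.279) and Ythdf2 (0.348).

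For genotype at 9 months the smallest p-values were those of Ythdf2, Adarb1 and Ythdc1. Ythdf2 and Ythdc1, the latter from the other RNA processing genes, encode readers of methylated adenosine in RNA and had limma adjusted p-values of 0.351 and 0.414. Adarb1, the gene of a second editing enzyme, had 28.3 ± 12.3 FPKM in WT and 41.0 ± 1.28 in APP/PS1 (SD, n = 3; limma adjusted p = 0.381). For age they were those of Upf1, a helicase gene of RNA decay, Srsf1, a splicing factor gene, and Rida, with limma adjusted p-values of 0.238, 0.267 and 0.311.

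Markers of cell types were read in the same mRNA libraries beside these genotype comparisons. The 3 microglia markers summed to 34.8 to 41.1 FPKM in WT and 44.2 to 45.7 in APP/PS1 at 6 months. At 9 months they summed to 35.9 to 39.0 in WT and 41.0 to 50.2 in APP/PS1, so the genotypes did not overlap at either age. The share of all genes that did not overlap in this way was not counted, here or for the lists below. The 3 astrocyte markers summed to 444 to 491 FPKM in WT and 499 to 559 in APP/PS1 at 6 months. The 4 striatum markers summed to 166 to 197 in WT and 144 to 151 in APP/PS1 at that age. At 9 months both sums overlapped. Of the single genes in these lists, only Adora2a did not, with 11.5 to 12.3 FPKM in WT and 13.4 to 14.4 in APP/PS1. Adora2a was thus higher in APP/PS1 at 9 months and lower at 6 months. Slc1a2 made up most of the astrocyte sums and Ppp1r1b most of the striatum sums. At 6 months both of these genes, Aqp4 and Adora2a did not overlap. The astrocyte marker Gja1, the striatum markers Drd1 and Drd2 and the microglia marker Csf1r did overlap at 6 months. The 5 choroid plexus markers ran from 3.86 to 340 FPKM over the 12 libraries and overlapped between genotypes at 6 months. At 9 months their sums did not overlap, with 299 to 340 FPKM in WT and 71.4 to 286 in APP/PS1. Ttr made up most of these 9-month sums. Ttr and Folr1 did not overlap at that age, while Kl, Aqp1 and Kcnj13 did. The part of these cell types in the genotype values of novel_circ_0051417, novel_circ_0010579 and mmu_circ_0000334 was not tested.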

How the data were processed

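The authors deposited read counts per circRNA and, beside them, values headed tpm. Each deposited tpm value was checked against its count and depended on the count and the library's circRNA reads alone, not on length, so it is called CPM here. The mRNA values were deposited as FPKM per transcript, per the file headers, and were summed per gene. Bowtie 0.12.2 and mm8 are listed, without their roles, per the submitters' processing notes. The circRNA caller and its minimum: not given in the sources used here.

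Members were found from the counts by rule. The members, gene lists and tests were chosen with earlier results of these data known. Counts were tested with edgeR 4.0.16 (TMM, 4 group means, glmQLFTest) in R 4.3.3 for circRNAs with at least 2 reads in 3 libraries and 20 in all. Levels where listed were tested with limma 3.58.1 on log2(CPM + 0.5), zeros being dropped from the fit as missing. Genes with a mean of 0.5 FPKM or more were tested with limma on log2(FPKM + 0.25), which understates changes of low genes. DESeq2 1.42.0, other scalings and filters and left-out libraries were alternatives. p-values were adjusted by Benjamini-Hochberg over each whole table, with a threshold of 0.05. The fits were also run on simulated data with known changes. No all-or-none zeros or empty groups were added to those data, so calls of such circRNAs were not checked by them.

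Named members were those called in a fit, the 3 of highest mean count for each number of empty libraries, for each library the highest member missing only there, and those nearest the limit of 20. Members 1 library from a group pattern, of shared pattern, with an empty group, at 0 in 1 genotype or age, missing from the deepest library, or with high or low CV were named after their values were seen. Of the listed factors, the 3 of smallest p for each contrast were named. Totals of 247998 to 654147 circRNA reads limit precision, and reads were not tagged by molecule. The depth of the FPKM libraries is unknown.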

Additional observations from a re-analysis of the deposited data

How the results depend on the processing

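The set depends on the limit: 169 circRNAs met it with a minimum of 10 reads and 14 with 50, and 66 to 80 with 1 library left out. The number of members whose zeros fill whole groups was 0 to 3 with 1 library left out: 3 without APP/PS1 3, 2 without WT 3, and 1 each without WT 1 or APP/PS1 2, all of 9 months. Calls of single members rest on few libraries. Over the fits without 1 library, edgeR called 1 to 13 circRNAs and 0 to 3 members for genotype at 6 months, 1 to 5 and 0 to 1 at 9 months, 0 to 10 and 0 to 5 for age, and 3 to 9 and 0 to 3 for the interaction. Among listing libraries limma called 0 to 1 members at 6 months and 0 to 1 for the interaction. For mRNA the counts were 4 to 17, 5 to 14, 1 to 19 and 0 to 4 over all genes, and 0, 0 to 1, 0 to 1 and 0 to 1 of the listed factors.

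DESeq2 called 19 circRNAs and 5 members at 6 months, 4 circRNAs at 9 months, 26 and 4 members for age, and 17 and 4 members for the interaction. It left adjusted p missing for 5, 5, 5 and 7 members, and for 9238, 12, 9814 and 10967 of all 14872 circRNAs. With only the groups compared, edgeR called 19 circRNAs and 6 members at 6 months and 0 circRNAs at 9 months. Without the low-count filter it called 2 members for the interaction. Without the low-value filter limma called 1 gene for age. The cause of these differences was not tested. Under the other alternatives 78 counts and 23 further values stayed on the same side of the threshold or within 1.5 times, and no direction reversed.

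Whether the replicate numbers link libraries is not stated. Deviations of same-numbered libraries from their group means correlated at -0.12 to 0.22 over 18 pairs. Those of differently numbered libraries correlated at -0.26 to 0.15 over 36 pairs. The highest values were those of WT 1 (0.22) and WT 2 (0.16) across the ages, while WT 3 had 0.01. These correlations do not exclude a link. With the replicate number as a block, edgeR called 4 members at 6 months, 10 circRNAs and 4 members for age and 10 circRNAs and 4 members for the interaction, and limma called 1 gene for age.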
